A study of Mus musculus with 20 samples.

Results

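Genes whose surroundings are standard examples of domain borders or far-acting enhancers in the mouse were followed in chromatin immunoprecipitation with sequencing (ChIP-seq) peak lists of CTCF, RAD21 and MAZ. The members were the 9 genes *Shh*, *Lmbr1*, *Sox9*, *Kcnj2*, *Epha4*, *Pax3*, *Ihh*, *Wnt6* and *Myc*, and every peak that lay between 100 kb before the start and 100 kb after the end of 1 of them was taken, with a peak in the overlapping windows of *Ihh* and *Wnt6* counted once. These windows covered 2.20 Mb and held 188 of the 136043 peaks of the 12 lists. Peaks of any list that overlapped were joined into 67 sites, 30 of them in the windows of *Ihh* and *Wnt6*.

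All samples were E14 mouse embryonic stem cells in which CTCF carries a degron that leads to its breakdown when auxin is present, so the untreated cells named WT carry the tag too. The 4 conditions were untreated degron cells (WT), degron cells given auxin for 2 days (ΔCTCF), untreated degron cells with a knockout of *Maz* (ΔMAZ), and knockout cells given auxin for 2 days (ΔCTCF/ΔMAZ). Per the labels the knockout samples came from cells named B2. Each of the 3 antibodies had 1 list in each condition, so every difference given here is between single libraries and has no replicate check, and the knockout of *Maz* cannot be told apart from other properties of those cells.

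CTCF binds DNA through zinc fingers at a non-palindromic sequence, and cohesin, the ring complex that holds RAD21 as a subunit, extrudes loops of chromatin and halts where it meets bound CTCF. Sites where both sit form many of the borders between topological domains, which limit the genes an enhancer can reach. MAZ is a zinc-finger protein that binds G-rich DNA, often at promoters, and has been linked to cohesin at borders. *Shh* encodes a secreted morphogen whose limb enhancer lies far away in an intron of *Lmbr1*, and *Sox9*, a regulator of cartilage and testis, is separated from the potassium channel gene *Kcnj2* by a border. The region of *Epha4*, an ephrin receptor gene, is flanked by domains with *Pax3*, a regulator of neural crest and muscle, and with *Wnt6* and *Ihh*, which encode secreted signals, and rearrangements of its borders are known from limb malformations. *Myc* encodes a transcription factor and has a CTCF site just before its promoter.

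Contact maps were not analysed here, so a border was not measured. In its place, a WT CTCF peak that overlapped a WT RAD21 peak was followed and is called a CTCF-RAD21 site. There were 22 of these, 14 of them in the windows of *Ihh* and *Wnt6*. By annotation 13 lay between genes, 7 in introns and 2 in exons of non-coding genes. The letters CCANNAGNNGGC, the core of the CTCF motif on either strand, lay within 50 bp of the CTCF summit at 10 of the 22 sites, and letters with at most 1 mismatch to the 8 fixed bases at 20 of them. Over all WT CTCF summits these shares were 45.6% and 80.0%, against 1.04% and 9.20% at positions 1 kb away. The following sequences (mm10, read from the RefSeq assembly GRCm38.p6) show this core in capitals, 5′ to 3′ on its own strand, first at the 8 sites where RAD21 was called in all 4 conditions, then at 3 sites where it was not called after auxin.
Shh, 15.9 kb downstream of the start, chr5:28451347-28451406, plus strand: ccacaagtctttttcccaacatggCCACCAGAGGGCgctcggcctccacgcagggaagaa
Lmbr1, 11.2 kb upstream, chr5:29389539-29389598, plus strand: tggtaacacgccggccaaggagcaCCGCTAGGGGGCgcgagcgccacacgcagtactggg
Lmbr1, 85.0 kb downstream, chr5:29293373-29293432, minus strand: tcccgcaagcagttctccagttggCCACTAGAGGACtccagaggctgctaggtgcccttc
Epha4, 1.4 kb upstream, chr1:77516422-77516481, minus strand: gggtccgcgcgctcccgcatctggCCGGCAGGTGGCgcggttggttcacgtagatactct
Myc, 2.0 kb upstream, chr15:61983407-61983466, plus strand: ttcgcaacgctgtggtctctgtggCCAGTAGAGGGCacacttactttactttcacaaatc
Wnt6, 36.4 kb downstream, chr1:74808279-74808338, minus strand: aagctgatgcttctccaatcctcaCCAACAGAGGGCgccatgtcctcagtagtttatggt
Ihh, 70.7 kb downstream, chr1:74880934-74880993, plus strand: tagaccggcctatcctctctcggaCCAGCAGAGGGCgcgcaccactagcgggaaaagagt
Ihh, 65.4 kb upstream, chr1:75017033-75017092, minus strand: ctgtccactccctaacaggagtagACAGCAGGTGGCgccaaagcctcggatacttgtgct
Wnt6, 37.3 kb downstream, chr1:74809161-74809220, plus strand: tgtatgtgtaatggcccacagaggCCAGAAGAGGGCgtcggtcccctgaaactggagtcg
Ihh, 2.7 kb downstream, chr1:74948981-74949040, plus strand: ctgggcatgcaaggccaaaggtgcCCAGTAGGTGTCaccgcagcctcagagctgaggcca
Pax3, 70.5 kb upstream, chr1:78267686-78267745, plus strand: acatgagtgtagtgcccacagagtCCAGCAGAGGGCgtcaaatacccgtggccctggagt

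Counted from 1 at the 5′ end of the core, the *Lmbr1* site upstream of the start and the *Epha4* site each carried the substitution A3G, the *Lmbr1* intron site carried G11A, the *Ihh* site 65.4 kb upstream carried C1A and the *Ihh* site 2.7 kb downstream carried G11T. The core was exact at the sites of *Shh*, *Myc*, *Wnt6* and *Pax3* shown, and at the *Ihh* site 70.7 kb downstream. An exact core therefore stood at sites of both fates. The *Sox9* site and the *Ihh* site 13.0 kb upstream were the 2 of 22 without a match at this limit, and no match says only that these letters were not in the window.

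Depletion of CTCF was examined first at these loci. Of 34 WT CTCF peaks in the windows, 5 overlapped a ΔCTCF peak, 14.7% (95% interval 6.45 to 30.1), against 8.83% of all WT CTCF peaks. In the knockout cells 4 of 32 CTCF peaks were called after auxin, 12.5% (4.97 to 28.1), against 9.72% of the whole list. Both intervals held the value of the whole list. The first share was 8.82% (3 of 34, genome 7.71%) with a reciprocal overlap of at least 50%, 0% (0 of 28, genome 4.79%) with a limit of 10 on −log10 q and 60.0% (3 of 5, genome 42.5%) with lists of equal length. The second was 4.17% (1 of 24, genome 7.1%) with that q limit, 100% (4 of 4, genome 51.3%) with lists of equal length and 27.3% (3 of 11) without the windows of *Ihh* and *Wnt6*. Without auxin, 30 of 34 WT CTCF peaks were called in ΔMAZ, 88.2% (73.4 to 95.3), against 85.5% of the whole list, and all 22 CTCF-RAD21 sites were among them, against 94.6% of such sites of the genome. At these 22 sites the 95% counting intervals of the WT and ΔMAZ fold enrichment overlapped every time, while they lay apart at 1.02% of such sites of the genome.

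CTCF was called in all 4 lists at 4 of the 22 sites, near *Shh*, *Lmbr1*, *Epha4* and *Wnt6*. This share of 18.2% (7.31 to 38.5) stood against 8.33% of such sites of the genome, which lay inside the interval. At the *Shh* site, between genes at chr5:28451110-28451581, its fold enrichment was 36.2 in WT, 8.15 under ΔCTCF, 36.0 under ΔMAZ and 7.43 under ΔCTCF/ΔMAZ. At the *Lmbr1* site, in an exon of the non-coding gene 4632411P08Rik at chr5:29389387-29389776, it was 34.1, 7.87, 43.9 and 6.42 in the same order. At the *Epha4* site, in an exon of the non-coding gene Gm28386 at chr1:77516177-77516781, it was 38.0, 8.89, 38.8 and 8.79. Both auxin lists were low and both untreated lists high at all 3. At the *Wnt6* site, between genes at chr1:74808092-74808491, the CTCF values were 19.8 in WT, 6.74 under ΔCTCF, 30.4 under ΔMAZ and 8.25 under ΔCTCF/ΔMAZ. Among all WT CTCF peaks the sites of *Shh*, *Lmbr1* and *Epha4* ranked at percentiles 97.4, 96.2 and 98.1 of fold enrichment, and the *Wnt6* site at 73.5. A CTCF peak 12.8 kb downstream of the *Wnt6* start, in a UTR of that gene, made up the fifth one left in ΔCTCF. Its CTCF fold enrichment was 22.6 in WT, 27.5 in ΔMAZ and 7.94 in ΔCTCF. RAD21 was called there in ΔMAZ alone, at 6.51.

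**Figure D1:**
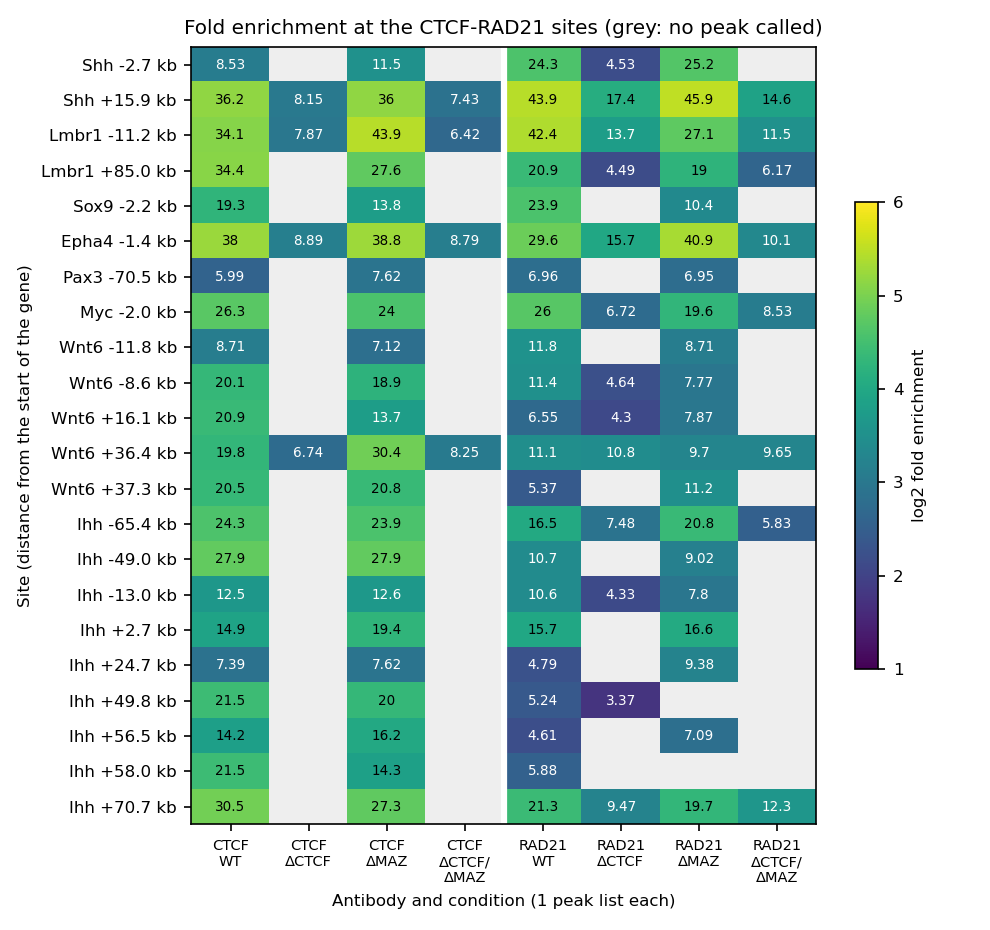
Fold enrichment of CTCF (left 4 columns) and RAD21 (right 4 columns) at the 22 CTCF-RAD21 sites in each condition, with the value in each cell, colour on a log2 scale and grey where no peak was called. Rows are sites, named by the nearest member gene and the signed distance from its start (negative is upstream). CTCF is filled in both auxin columns at 4 sites, and RAD21 in the ΔCTCF column at 13 and in the ΔCTCF/ΔMAZ column at 8.

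RAD21, the cohesin subunit, was followed next. Of 26 WT RAD21 peaks, 15 were called in ΔCTCF, 57.7% (38.9 to 74.5), against 38.9% of all WT RAD21 peaks, so the genome value lay just below the interval. With a limit of 10 on −log10 q the share was 38.9% (7 of 18, genome 33.1%). It was 60% (6 of 10, genome 55.5%) with lists of equal length. In the knockout cells 8 of 25 RAD21 peaks were called after auxin, 32% (17.2 to 51.6), against 22.4% of the whole list. That share was 50% (5 of 10) without the windows of *Ihh* and *Wnt6* and 77.8% (7 of 9, genome 51.7%) with lists of equal length. Between WT and ΔMAZ, 22 of 26 RAD21 peaks were called, 84.6% (66.5 to 93.8), against 83.5%. The RAD21 library of ΔCTCF was 2.18 times as deep as that of WT and 2.34 times as deep as that of ΔCTCF/ΔMAZ by an index taken from the lists. Scaled to the depth of WT, the ΔCTCF list held 13 of the 26 WT peaks, 50.0%, against 37.1% of the whole list.

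Restricted to the 22 CTCF-RAD21 sites, RAD21 was called at 13 in ΔCTCF, 59.1% (38.7 to 76.7), against 40.3% of the 17510 such sites of the genome. It was called at 8 in ΔCTCF/ΔMAZ, 36.4% (19.7 to 57.0), against 23.4%, and at 20 in ΔMAZ, 90.9% (72.2 to 97.5), against 89.9%. CTCF was called in ΔCTCF at 4 of them, 18.2% (7.31 to 38.5), against 12.5%. Each interval held its genome value. The members were mostly strong sites, since 15 of 22 fell in the upper 2 of 5 equal groups of WT CTCF fold enrichment over the genome. Over these groups, from weakest to strongest, the genome shares with RAD21 in ΔCTCF were 8.34%, 22.2%, 40.1%, 56.1% and 74.6%. From weakest to strongest, 1 of 4, 1 of 2, 0 of 1, 5 of 8 and 6 of 7 member sites had RAD21 in ΔCTCF. In ΔCTCF/ΔMAZ the 7 member sites of the 3 weaker groups had none, where the genome shares were 2.94%, 9.14% and 18.8%, and 2 of 8 and 6 of 7 had it in the upper groups, where the genome shares were 32.3% and 53.8%.

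The counts were not alike in all windows. In the other windows RAD21 was called in ΔCTCF at 6 of 8 CTCF-RAD21 sites and in ΔCTCF/ΔMAZ at 5 of 8, against 7 of 14 and 3 of 14 in the windows of *Ihh* and *Wnt6*. At 7 comparison loci drawn the same way around *Grem1*, *Gli3*, *Fgf8*, *Pitx1*, *Dlx5*, *Bmp2* and *Tfap2a*, other developmental genes, there were 12 CTCF-RAD21 sites, of which 5 had RAD21 in ΔCTCF and 2 in ΔCTCF/ΔMAZ. The intervals of the members and the comparison loci overlapped for both shares (19.3 to 68.0 and 4.70 to 44.8 at the comparison loci). Whether the loci differ was not tested.

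**Figure D2:**
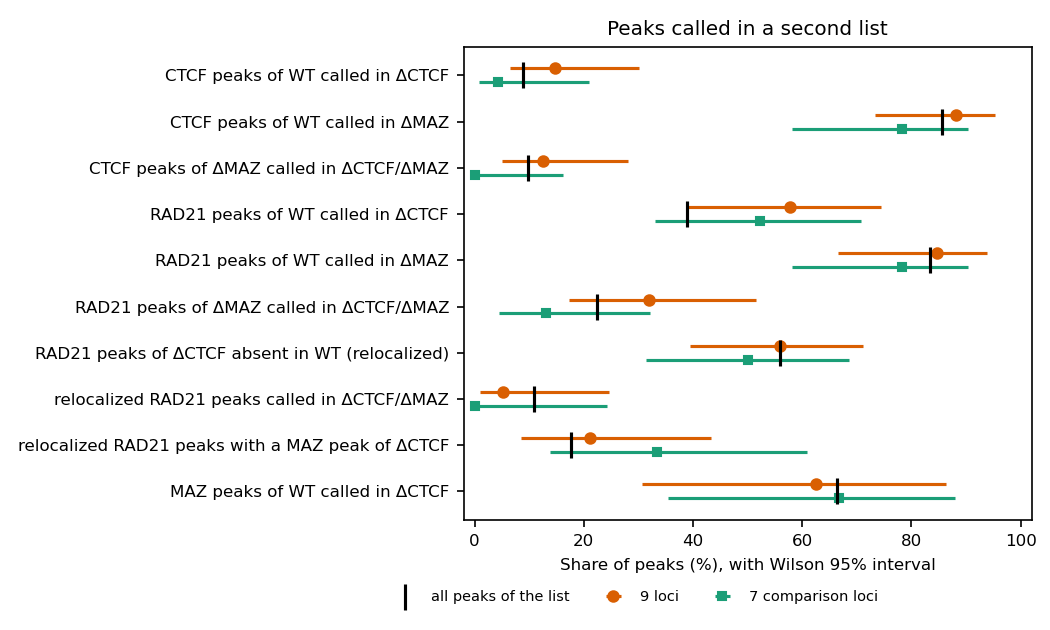
Share of the peaks named on each row that were called, or for relocalized peaks not called, in the second list, in percent. Circles are the 9 loci and squares the 7 comparison loci, with Wilson 95% intervals, and black ticks are all peaks of the list. For RAD21 peaks of WT in ΔCTCF the tick at 38.9% lies just below the lower end of the interval of the 9 loci, and for the other 9 rows it lies inside that interval.

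The sites with RAD21 in all 4 conditions numbered 8 of 22, 36.4% (19.7 to 57.0), against 22.2% of such sites of the genome, and 4 of them were those that also kept a CTCF peak. At the *Shh* site RAD21 fold enrichment was 43.9 in WT (counting interval 35.9 to 53.2), 17.4 under ΔCTCF (13.7 to 21.8), 45.9 under ΔMAZ (38.1 to 54.9) and 14.6 under ΔCTCF/ΔMAZ (10.1 to 20.6). At the *Lmbr1* site upstream of the start it was 42.4 (34.7 to 51.3), 13.7 (10.6 to 17.5), 27.1 (21.7 to 33.3) and 11.5 (7.67 to 16.7) in the same order. At the *Epha4* site it was 29.6 (23.0 to 37.4), 15.7 (12.2 to 20), 40.9 (33.5 to 49.5) and 10.1 (6.41 to 15.2). At all 3 the untreated values lay above both auxin values with no overlap of the intervals. The *Shh* and *Lmbr1* sites ranked at percentiles 98.9 and 98.6 of the WT RAD21 list.

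The *Wnt6* site differed from these. Its RAD21 fold enrichment was 11.1 in WT (7.60 to 15.7), 10.8 under ΔCTCF (8.23 to 14), 9.70 under ΔMAZ (6.64 to 13.7) and 9.65 under ΔCTCF/ΔMAZ (6.38 to 14.1), so all 4 intervals overlapped. A second CTCF-RAD21 site lay beside it at chr1:74809032-74809350, with a core on the opposite strand. The WT CTCF values of the pair were close, 19.8 and 20.5, but at the second site CTCF was called in neither auxin list. Its RAD21 fold enrichment was 5.37 in WT and 11.2 in ΔMAZ, and RAD21 was called in neither auxin list.

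At the other 4 of the 8 sites RAD21 was called after auxin although CTCF was not. The CTCF libraries were shallower. The depth index was 0.00195 for CTCF and 0.0152 for RAD21 in ΔCTCF, and 0.00353 and 0.00647 in ΔCTCF/ΔMAZ. A missing CTCF call beside a RAD21 peak thus does not show that CTCF was absent. In the *Lmbr1* intron, at chr5:29293176-29293583, RAD21 fold enrichment was 20.9 in WT, 4.49 under ΔCTCF, 19.0 under ΔMAZ and 6.17 under ΔCTCF/ΔMAZ, and CTCF was 34.4 in WT and 27.6 in ΔMAZ. At the *Myc* site, between genes at chr15:61983177-61983652, RAD21 was 26.0, 6.72, 19.6 and 8.53 in the same order, and CTCF was 26.3 in WT and 24 in ΔMAZ. At the *Ihh* site 70.7 kb downstream, between genes, RAD21 was 21.3, 9.47, 19.7 and 12.3. At the *Ihh* site 65.4 kb upstream, in an intron of *Nhej1*, a gene of DNA end joining, it was 16.5, 7.48, 20.8 and 5.83. The auxin values were again the low ones, and neither order of the 2 auxin values held at all 4 sites.

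Over the 8 sites the WT interval lay above the ΔCTCF interval at 7, while 57.9% of the 3889 genome sites of this kind had these intervals apart. The ΔMAZ interval lay above that of ΔCTCF/ΔMAZ at 6, against 72.1% apart in the genome. The intervals of ΔCTCF and ΔCTCF/ΔMAZ overlapped at 8 of 8, against 5.17% apart in the genome, and those of WT and ΔMAZ lay apart at 1, the *Lmbr1* site upstream of the start, against 3.68%. Over all 20 CTCF-RAD21 sites with RAD21 in both WT and ΔMAZ, these intervals lay apart at 2, this site and the *Sox9* site, both higher in WT, against 2.68% apart in the genome. Fold enrichment is relative to the background of its own library and was not put on a common scale. These intervals cover counting error only.

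**Figure D3:**
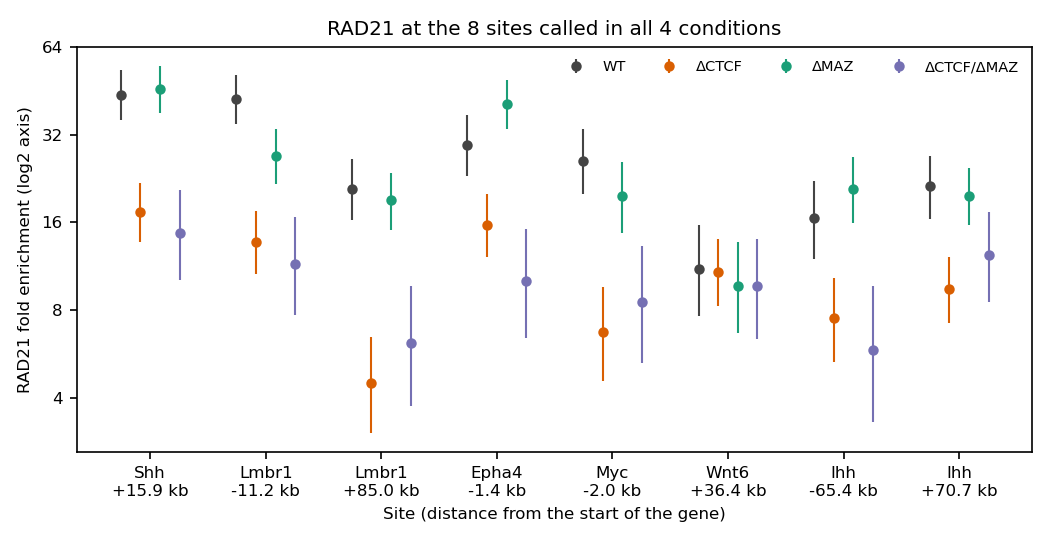
RAD21 fold enrichment on a log2 axis at the 8 sites called in all 4 conditions, 1 point for each peak list with its 95% counting interval. The auxin points (ΔCTCF, ΔCTCF/ΔMAZ) lie below the untreated points at 7 sites, and at the Wnt6 site all 4 points lie between 9.65 and 11.1.

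RAD21 was called in ΔCTCF and not in ΔCTCF/ΔMAZ at 5 of the 22 CTCF-RAD21 sites, 22.7% (10.1 to 43.4), against 18.0% of such sites of the genome. They were the *Shh* site 2.7 kb upstream, the *Wnt6* sites 8.6 kb upstream and 16.1 kb downstream, and the *Ihh* sites 13.0 kb upstream and 49.8 kb downstream. Their RAD21 fold enrichment in ΔCTCF ran from 3.37 to 4.64 with a median of 4.33, against 4.49 to 17.4 with a median of 10.2 at the 8 sites called in both. At the *Shh* site, in an intron of the non-coding genes 9530036O11Rik and Gm26894, RAD21 was 24.3 in WT, 4.53 under ΔCTCF and 25.2 in ΔMAZ. When the ΔCTCF pileups were scaled to the depth of ΔCTCF/ΔMAZ, 4 of these 5 peaks still passed the lowest p of that list, the *Ihh* site 49.8 kb downstream being the exception, and 84.5% of the genome sites of this kind did so too.

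RAD21 was not called in ΔCTCF at 9 CTCF-RAD21 sites. The *Sox9* site, in an intron of BC006965 2.2 kb upstream of the start at chr11:112779819-112780166, had RAD21 at 23.9 in WT (18.1 to 31.1) and 10.4 in ΔMAZ (6.94 to 15.1) and CTCF at 19.3 and 13.8, and neither protein was called after auxin. The *Ihh* site 2.7 kb downstream, in an intron of *Ihh* at chr1:74948793-74949190, had RAD21 at 15.7 in WT and 16.6 in ΔMAZ. The *Ihh* site 49.0 kb upstream, in an intron of *Nhej1*, had CTCF at 27.9 in both untreated lists and RAD21 at 10.7 and 9.02. The one *Pax3* site, 70.5 kb upstream, was the weakest of the 22 with CTCF at 5.99 in WT. Sites without RAD21 in ΔCTCF thus included strong ones, and over the 9 the WT CTCF fold enrichment ran from 5.99 to 27.9 with a median of 14.9, against 8.53 to 38.0 with a median of 24.3 over the 13 with RAD21. WT RAD21 ran from 4.61 to 23.9 with a median of 6.96, against 5.24 to 43.9 with a median of 20.9. The ranges overlapped.

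The remaining WT peaks had 1 of the 2 proteins. CTCF stood with RAD21 at 22 of 34 peaks, 64.7% (47.9 to 78.5), against 66.3% of the whole list, and without it at the other 12 sites, with WT CTCF fold enrichment from 5.33 to 22.6 and a median of 9.65. The single site in the *Kcnj2* window was of this kind. It lay between genes 23.7 kb upstream at chr11:111042262-111042621, had CTCF at 5.99 in WT and 9.69 in ΔMAZ, and had no RAD21 in any list. RAD21 stood without WT CTCF at 4 sites, 2 of them at *Myc*, 1 at *Sox9* and 1 between *Ihh* and *Wnt6*. The site between *Ihh* and *Wnt6* held an exact CTCF core and had a CTCF peak in ΔMAZ, at 8.31. The share of WT RAD21 peaks with a WT CTCF peak was 22 of 26, 84.6% (66.5 to 93.8), against 86% of the whole list. It was 5 of 10 (genome 22.2%) with lists of equal length within each antibody. That setting cut the CTCF lists to 2381 peaks and the RAD21 lists to 6400, so these 2 were still of unlike length.

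RAD21 peaks of ΔCTCF that overlapped no WT RAD21 peak, named relocalized, numbered 19 of 34, 55.9% (39.5 to 71.1), against 55.9% of the whole list, and 2 of 9 (22.2%, genome 25.8%) at a −log10 q of at least 10. Their fold enrichment ran from 3.10 to 6.88 with a median of 4.29, where the whole ΔCTCF list had a median of 4.85. It was 3.37 to 17.4 at the 13 CTCF-RAD21 sites in the same list. Introns held 11 of them, UTRs 2 and the space between genes 6, and 4 lay within 1 kb of a gene start. None of the 19 held the exact CTCF core within 50 bp of the summit, against 1.13% of all relocalized peaks. The letters GGGAGGG, a G-rich string bound by MAZ, stood at 1 of them, against 7.84% of all relocalized peaks and 4.43% at positions 1 kb away. The genome shares used RAD21 summits. In the windows the summit of highest fold enrichment at the site was used. This was a MAZ summit 53.3 kb downstream of *Wnt6*, 58.2 kb downstream of *Epha4* and 0.2 kb downstream of *Sox9*.

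In the *Epha4* window there were 5 relocalized peaks, all in introns of the gene. They stood 58.2, 61.0, 62.3, 63.3 and 94.6 kb downstream of the start, with RAD21 fold enrichment in ΔCTCF of 4.50, 6.88, 4.18, 5.31 and 3.17. The peak at 63.3 kb (chr1:77451623-77451979) was the single one of the 19 also called in ΔCTCF/ΔMAZ, with a fold enrichment of 5.17. Those at 58.2 and 61.0 kb carried MAZ peaks of ΔCTCF, with MAZ fold enrichment of 4.63 and 4.53. No WT list had a peak at any of the 5.

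In the windows of *Ihh* and *Wnt6* there were 7 relocalized peaks. One lay at the *Ihh* start, in a UTR, with RAD21 at 4.29. The others near *Ihh* stood 67.1 and 65.7 kb downstream and 6.1, 20.1 and 75.7 kb upstream, with RAD21 at 3.57, 3.81, 4.64, 5.69 and 5.58, and the first 2 flanked the start of *Fev*, a gene of a neuronal transcription factor. The peak 53.3 kb downstream of the *Wnt6* start had RAD21 at 5.71 and MAZ in ΔCTCF at 6.19. The *Kcnj2* window held none, and those of *Sox9*, *Lmbr1*, *Myc*, *Shh* and *Pax3* held 1 or 2 each. *Sox9* had 1 in its UTR, 0.2 kb from the start, with RAD21 at 4.03 and MAZ at 5.70, and 1 at 57.6 kb downstream with RAD21 at 4.05. RAD21 was 4.76 and 4.22 at 2 peaks in introns of *Rnf32*, a neighbour of *Lmbr1*, 5.49 at 25.5 kb downstream of *Myc*, 3.94 in an intron of *Shh* and 3.10 at 18.8 kb upstream of *Pax3*.

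**Figure D4:**
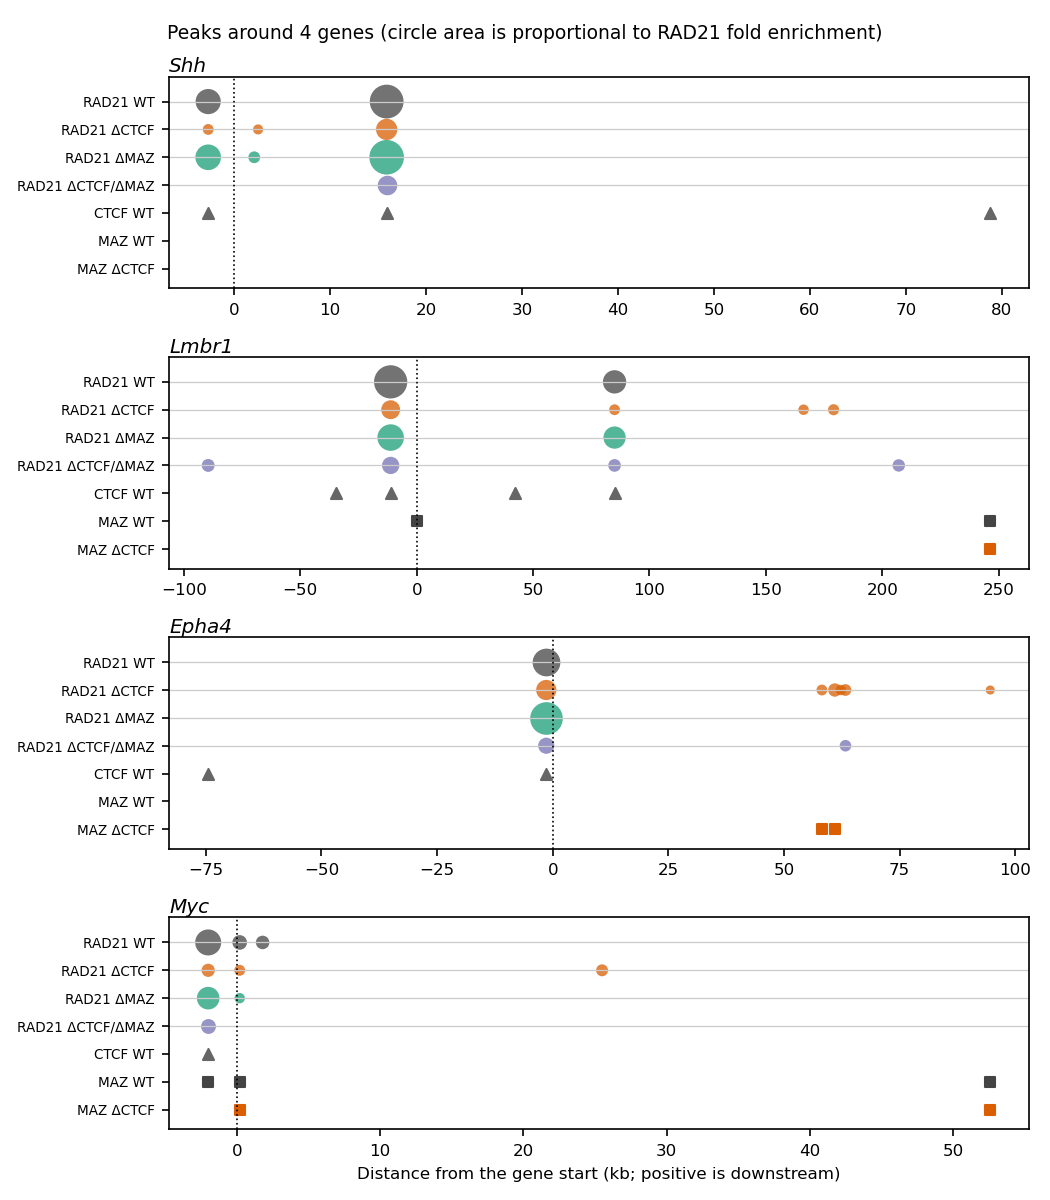
Peaks around Shh, Lmbr1, Epha4 and Myc by distance from the gene start in kb (positive is downstream; each panel has its own scale). Circles are RAD21 peaks in each condition, with an area proportional to fold enrichment, triangles WT CTCF peaks, and squares MAZ peaks of WT and ΔCTCF. The large circles of WT and ΔMAZ stand at the CTCF peaks and shrink in the auxin rows, and the row of ΔCTCF adds small circles within Epha4.

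Relocalized peaks overlapped a MAZ peak of ΔCTCF at 4 of 19, 21.1% (8.51 to 43.3), against 17.7% of the whole list. The share was 1 of 11 (genome 15.1%) at a −log10 q of at least 5. It was 2 of 4 (genome 13.6%) with RAD21 lists of equal length and the MAZ list uncut. The 4 of 19 were the 2 at *Epha4* and those at *Wnt6* and *Sox9*, and the RAD21 fold enrichment of these 4 was 4.03 to 6.88. None of the 19 had a MAZ peak in WT, against 15.6% of the whole list. Of the 19, 1 was called in ΔCTCF/ΔMAZ, 5.26% (0.935 to 24.6), against 10.8% of the whole list. That count was 0 of 11 (genome 8.11%) at a −log10 q of at least 5 and 1 of 4 (genome 43.3%) with lists of equal length. When the ΔCTCF pileups were scaled to the depth of ΔCTCF/ΔMAZ, 11 of the 19 passed the lowest p of that list, and 1 of these 11 was called. Over the whole list 52.8% of the relocalized peaks passed that limit, and 15.4% of those were called. Of the 18 relocalized peaks of the windows that ΔCTCF/ΔMAZ did not call, 8 thus fell under its limit and 10 stayed above it. Scaled to the depth of WT, 14 of the 19 passed the lowest p of the WT list, against 72% of the whole list.

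**Figure D5:**
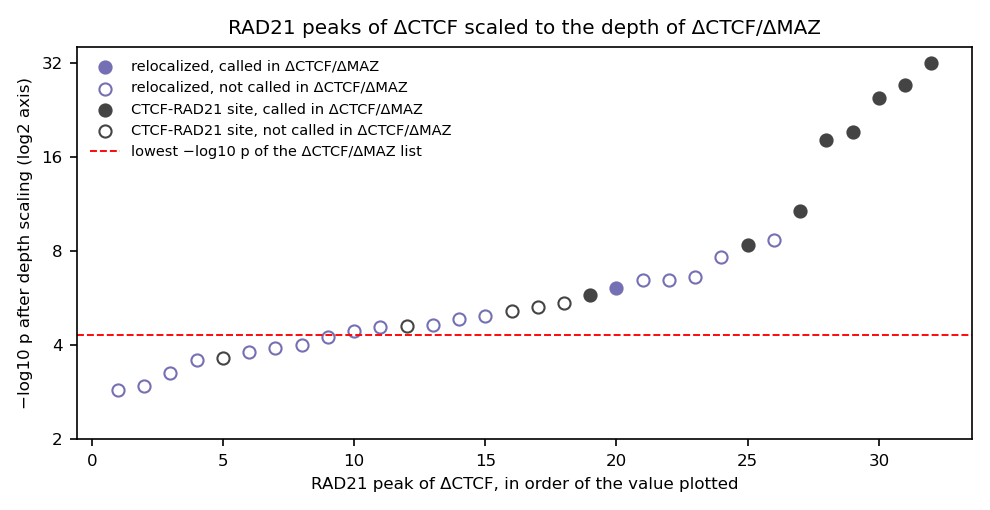
−log10 p on a log2 axis of RAD21 peaks of ΔCTCF at relocalized and CTCF-RAD21 sites after scaling to the depth of ΔCTCF/ΔMAZ, in increasing order. Filled points were called in ΔCTCF/ΔMAZ, open points were not, and the dashed line is the lowest −log10 p of that list, 4.32. Above the line lie 11 relocalized points, 1 of them filled, and 12 CTCF-RAD21 points, 8 of them filled.

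RAD21 peaks found in ΔCTCF/ΔMAZ alone numbered 2 of 11, 18.2% (5.14 to 47.7), against 12.4% of the 6400 peaks of that list, and both lay in the *Lmbr1* window. The peak 207.1 kb downstream of the start, between genes at chr5:29171198-29171487, had a fold enrichment of 5.95, and the peak 89.6 kb upstream, between genes at chr5:29467896-29468079, had 6.41. Neither carried a CTCF or MAZ peak in any list.

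MAZ itself had 8 peaks in WT and 9 in ΔCTCF in the windows, and none in either knockout list, which held 33 peaks each over the genome. Of the 8 WT peaks, 5 were called in ΔCTCF, 62.5% (30.6 to 86.3), against 66.3% of the whole list. This count was 3 of 8 (genome 56.4%) with a reciprocal overlap of at least 50%, 2 of 5 (genome 62.8%) at a −log10 q of at least 5, 1 of 4 (genome 50.1%) at 10, and 2 of 5 in windows of 50 kb. MAZ and RAD21 shared 6 sites, the 4 relocalized ones and 2 at *Myc*. By direct overlap within a condition, 2 of 8 WT MAZ peaks held WT RAD21, 25% (7.15 to 59.1), against 8.32% of the whole list, and 4 of 9 ΔCTCF MAZ peaks held ΔCTCF RAD21, 44.4% (18.9 to 73.3), against 31.3%. Both genome values lay inside the intervals. At the CTCF-RAD21 site of *Myc*, MAZ fold enrichment was 6.99 in WT and MAZ was not called in ΔCTCF. At the *Myc* start, in a UTR at chr15:61985086-61985890, MAZ was 7.77 in WT and 4.25 in ΔCTCF. RAD21 there was 8.26 in WT, 4.64 under ΔCTCF and 4.16 in ΔMAZ, with no peak in ΔCTCF/ΔMAZ and no CTCF in any list. The ΔCTCF peaks of MAZ (chr15:61985094-61985309) and RAD21 (chr15:61985436-61985746) did not overlap each other. The MAZ library of WT was 2.65 times as deep as that of ΔCTCF. Scaled to that lower depth, the WT MAZ peak at the CTCF-RAD21 site had a −log10 p of 8.87, above the lowest value of the ΔCTCF list, 4.14, and 3 of the 5 WT MAZ peaks of the windows that passed this limit were called in ΔCTCF, against 71.6% of all WT MAZ peaks that passed it.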

How the data were processed

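ChIP-seq of CTCF, MAZ and RAD21 was performed by the authors in 20 samples, of which 12 came with a peak list and 8 were not analysed here. Per the labels and methods, reads were mapped to mm10 with Bowtie 2, low-quality reads and duplicates were removed, and narrow peaks were called with MACS for each library. Whether an input control was used is not given in the sources used here. Each deposited list gives a score (not used), a fold enrichment at the summit, which is a ratio of pileup to local background with a pseudocount of 1, and −log10 p and −log10 q values.

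Groups were taken from the sample titles. Genes and features came from GENCODE M21. The members, lists and comparison loci were chosen with earlier results of these data known. A further comparison locus is not reported here. The text names all 9 genes, the 3 strongest CTCF-RAD21 sites of each window, the one nearest to the gene start, the sites called in all 4 lists, the relocalized peaks, those of ΔCTCF/ΔMAZ alone and the MAZ-RAD21 sites. Other sites were named where a count was 5 or fewer, after their values were seen. Sites were matched by an overlap of at least 1 bp (0 peaks differed from bedtools 2.31.1 in 22 checks, and the shares were tested on simulated data). Shares carry Wilson 95% intervals, which treat peaks as independent. With 1 list per group no p-value was computed.

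Read totals are not in the lists. A whole-number pileup and its background were solved from the fold enrichment and −log10 p for all 136043 peaks within 0.001, and gave exact Poisson 95% counting intervals. The lowest background divided by the smallest peak width served as the depth index. Depth scaling multiplied pileup and background by the ratio of indices and kept peaks whose −log10 p reached the lowest value in the list of lower depth. Motifs with up to 1 mismatch and the counts of intervals that lay apart were added after seeing the data. Alternatives changed the overlap rule, the q limit, the list length, the window, the depth and the loci. For lists of equal length, the peaks of highest fold enrichment were kept up to the shortest list of the antibody. This was 2381 peaks for CTCF and 6400 for RAD21, and the MAZ lists were not cut. Lists of different antibodies were thus not of equal length. Python 3.11.15, pandas 2.3.3 and scipy 1.17.1 were used.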

Additional observations from a re-analysis of the deposited data

How the results depend on the processing

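The 11 shares were recomputed in 98 alternative settings, and 80 values stayed within the 95% interval of the share as reported. No paired analysis was possible because there was a single peak list for every antibody and condition. Values after "against" are over all peaks at the same setting. With a limit of 10 on −log10 q, CTCF peaks called after auxin were 0% of 28 from WT to ΔCTCF, against 4.79%. From ΔMAZ to ΔCTCF/ΔMAZ they were 4.17%, against 7.1%. RAD21 peaks of WT called in ΔCTCF were 38.9%, against 33.1%, and in ΔMAZ 94.4%, against 87.2%. Relocalized peaks were 22.2% of 9, against 25.8%. None of these 2 relocalized peaks was called in ΔCTCF/ΔMAZ (0%, against 4.85%) or had a MAZ peak (0%, against 6.23%). MAZ peaks of WT called in ΔCTCF were 25% of 4, against 50.1%. With −log10 q of at least 5, relocalized peaks called in ΔCTCF/ΔMAZ were 0% of 11, against 8.11%. With lists of equal length, CTCF peaks of WT called in ΔCTCF and in ΔMAZ were both 60.0% of 5, against 42.5% and 64.3%. Those of ΔMAZ called in ΔCTCF/ΔMAZ were 100% of 4, against 51.3%. RAD21 peaks of ΔMAZ called in ΔCTCF/ΔMAZ were 77.8% of 9, against 51.7%. WT RAD21 peaks with CTCF were 50.0% of 10, against 22.2%. Relocalized peaks called in ΔCTCF/ΔMAZ were 25% of 4, against 43.3%, and those with a MAZ peak 50.0% of 4, against 13.6%. The MAZ lists were not cut, since the shortest had no peak in the windows. MAZ peaks of WT called in ΔCTCF thus had no value in this setting. With the MAZ list of WT, relocalized peaks with a MAZ peak were 0% of 19, against 15.6%. Without the *Ihh* and *Wnt6* windows, a setting added after seeing the data, CTCF peaks of WT called in ΔMAZ were 71.4% of 14, against 85.5%. No value moved beyond its interval with a reciprocal overlap of at least 50%, a gap of up to 500 bp, windows of 50 kb or 250 kb, or depth scaling, which for the CTCF lists and for RAD21 of WT against ΔMAZ was also added after seeing the data. The cause of these moves was not tested, other than that stricter limits left fewer peaks. With 4 to 34 peaks per list in the windows, and none in the knockout MAZ lists, differences from the genome of less than the intervals given could not be seen.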
